A study of Mus musculus with 8 samples.

Results

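Genes of muscle wasting, FoxO transcription and autophagy were compared in quadriceps muscle between mice labelled Mss51 knockout (Mss51-/-, here KO) and mice labelled wild type (WT). A list of 40 genes was used, namely muscle ubiquitin ligases, FoxO factors and their targets, and genes of autophagy and the lysosome. They were found by gene name, and where a name stood on several entries the entry with the highest mean was kept. Of the 40 genes, 38 were found, and Fbxo31 and Map1lc3b were not analysed here. All 38 had a mean of at least 1 FPKM, the minimum for testing, and they stand among 11878 genes tested. FPKM are fragments scaled by transcript length and by the mapped fragments of the library, so levels are compared per length.

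Each group held 4 female mice aged 6 months, with 1 library per mouse. The labels describe no treatment and name no promoter or Cre line, and the design of the deleted allele and whether the mice were littermates are not given in the sources used here. Whole muscle was used, so values mix fibres with the other cells of the tissue. The limma p-values set the difference between the groups against the spread between these mice, moderated by a trend over all genes tested. The labels give no batch or date.

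Skeletal muscle loses protein mainly through the ubiquitin-proteasome system and through autophagy, in which a membrane closes around cytoplasm and delivers it to the lysosome. FoxO factors are held in the cytoplasm by insulin and Akt signalling, and when that signal falls they enter the nucleus and switch on muscle ubiquitin ligases and autophagy genes. Glucocorticoids act on part of the same gene set, and TFEB is the best known activator of lysosomal genes.

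No gene of the set passed the test between the groups. Of the 38, 0 had a limma adjusted p under 0.05, beside 6 of the 11878 genes tested (0.0505%), each of the 6 being higher in KO. At an unadjusted p under 0.05, 2 members stood higher in the KO libraries, Ctsd and Atg14, and 1 stood lower, Fbxo40. Over all genes tested, 7.50% stood higher and 2.76% lower at that unadjusted level. The smallest adjusted p in the set was 0.388. Log2 fold changes, on the scale of log2(FPKM + 0.5) and always KO minus WT, were above 0 in 25 of the 38 members (65.8%), beside 54.4% of all genes tested. Their median was 0.08, against 0.02 over all genes tested. These signs depend on the scaling: when each library was rescaled to the same sum over named genes (TPM), 4 of 38 members (10.5%) and 17.9% of all genes stood above 0. That sum is swollen in KO replicate 4 by the entry of Atg7, listed at 921731 FPKM there (54.9% of the library's named sum) and at 0 in the other 7 libraries, and in WT replicate 3 by Gm22953, at 469610 FPKM (41.8%) and likewise at 0 in the other 7. When the sum was taken over the 15429 named genes above 0 in every library instead, an alternative added after seeing the data, 16 of 38 members (42.1%) and 34.0% of all genes stood above 0.

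RNA of the targeted gene was higher in the libraries labelled KO. Mss51, at chr14:20482856-20497748 of mm10 in the files, stood at 340, 201, 216 and 207 FPKM in KO replicates 1 to 4, against 22.9, 37.0, 27.5 and 24.8 FPKM in WT replicates 1 to 4. Every library labelled KO was above every library labelled WT (log2 fold change 3.07, exact permutation p = 0.0286, two-sided, the smallest that 70 assignments allow; limma adjusted p = 6.43e-04). Whether the deleted allele still gives reads or the labels are exchanged cannot be told from these values and was not tested. Directions here are therefore those of the labels, and "KO" means the libraries labelled KO throughout. The files give no counts, and the low values gave no stable step for 1 fragment, so the depth of each library is unknown. The summed FPKM of named genes was 690397 to 1679478 in the KO libraries and 620662 to 1124387 in the WT libraries, and without the Atg7 and Gm22953 entries it was 757747 in KO replicate 4 and 654777 in WT replicate 3. Among myofibre markers Ckm, Des, Ttn, Mylpf and Pvalb were present in every library, Myh4 was listed at 0 in all 8, and Tnnt3 was listed at 0 in KO replicates 1 and 3 and WT replicates 2 and 4. The summed FPKM of 8 slow and oxidative fibre markers was 2833 in KO replicate 1 and 5976 to 6598 in the other KO libraries, against 2456 to 3032 in the WT libraries. Results are therefore also given without KO replicate 1. Over all genes tested, its mean correlation with its group was 0.9431, and that of the other KO libraries was 0.9352 to 0.9435. Its summed FPKM of 3 red cell markers was 1616, against 299 to 709 in the other KO libraries and 251 to 695 in the WT libraries.

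Promoters are shown for 5 members whose regulators are well known, so that the letters can be set beside the values. RefSeq sequences (GRCm38.p6), from 250 bases before to 50 bases after the gene start, were matched by symbol for 30 of the 38 members. Fbxo32, Foxo4, Eif4ebp1, Map1lc3a, Becn1, Atg12, Atg16l1 and Ctsb had no match and were not searched. The first pair is Ctsd (chr7:142387778-142388077, minus strand) and Lamp1 (chr8:13158911-13159210, plus strand), both lysosomal, with the E-box CACGTG in capitals, the core of the site that TFEB and its relatives bind.
Ctsd: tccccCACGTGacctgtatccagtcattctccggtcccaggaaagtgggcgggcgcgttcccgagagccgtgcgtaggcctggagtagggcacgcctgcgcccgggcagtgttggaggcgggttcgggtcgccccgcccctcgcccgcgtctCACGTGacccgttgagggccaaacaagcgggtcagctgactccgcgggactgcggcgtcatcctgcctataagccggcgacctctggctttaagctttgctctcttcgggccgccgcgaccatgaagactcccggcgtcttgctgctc
Lamp1: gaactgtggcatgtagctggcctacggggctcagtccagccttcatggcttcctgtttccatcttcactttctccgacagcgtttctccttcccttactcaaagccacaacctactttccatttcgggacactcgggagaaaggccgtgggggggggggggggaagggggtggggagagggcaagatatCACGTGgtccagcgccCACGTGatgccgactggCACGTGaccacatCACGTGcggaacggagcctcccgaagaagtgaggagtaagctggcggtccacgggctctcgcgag
Searched on both strands, CACGTG was found 2 times for Ctsd and 4 times for Lamp1. Shares are of genes, and a gene counts if any of its promoters holds the letters. CACGTG was present for 6 of the 30 member genes (20.0%), beside 8.09% of all 27025 genes with a promoter. It was present for 3 of the 5 genes of the lysosome and its regulator Tfeb, the third being Ctsl. The other members with it were Atg14, Atg5 and Klf15.

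For Trim63 (chr4:134314870-134315169, plus strand), the muscle ubiquitin ligase MuRF1 and a known FoxO target, capitals mark the FoxO core TGTTTAC.
Trim63: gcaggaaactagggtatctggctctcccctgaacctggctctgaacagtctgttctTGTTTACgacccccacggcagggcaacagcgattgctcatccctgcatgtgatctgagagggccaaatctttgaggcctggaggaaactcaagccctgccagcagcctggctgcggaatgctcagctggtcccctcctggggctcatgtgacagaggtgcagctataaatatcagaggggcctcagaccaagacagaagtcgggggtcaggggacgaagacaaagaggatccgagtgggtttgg
This core was found on either strand for 2 of the 30 member genes (6.67%), Trim63 and Sesn1, beside 4.05% of all genes with a promoter. In Sesn1 the core lay after the gene start. Fbxo32 was not among the genes searched. For the metallothioneins Mt1 (chr8:94178839-94179138, plus strand) and Mt2 (chr8:94172368-94172667, plus strand), whose products bind zinc and copper, capitals mark the core of the metal response element, TGCACNC or TGCGCNC, on either strand.
Mt1: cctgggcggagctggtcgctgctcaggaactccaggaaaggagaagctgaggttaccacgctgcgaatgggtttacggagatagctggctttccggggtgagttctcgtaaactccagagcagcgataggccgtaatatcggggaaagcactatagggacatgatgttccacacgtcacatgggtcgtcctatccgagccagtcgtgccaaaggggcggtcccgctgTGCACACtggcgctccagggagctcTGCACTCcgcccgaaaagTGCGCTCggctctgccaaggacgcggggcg
Mt2: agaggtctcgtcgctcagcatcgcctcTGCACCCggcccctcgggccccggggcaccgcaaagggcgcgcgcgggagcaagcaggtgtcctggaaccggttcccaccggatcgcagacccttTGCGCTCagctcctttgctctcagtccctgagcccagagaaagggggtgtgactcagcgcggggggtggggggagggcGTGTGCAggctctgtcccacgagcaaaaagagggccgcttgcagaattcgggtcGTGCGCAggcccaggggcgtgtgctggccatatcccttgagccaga
Mt1 held 3 of these cores and Mt2 held 4. The core is common: it was present for 10 of the 30 member genes (33.3%) and for 28.2% of all genes. The steroid receptor half-site AGAACA was present for 5 of the 30 (16.7%), Trim63 among them, beside 21.3% of all genes. These are matches of letters and were not tested for binding.

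The ubiquitin ligases did not move as 1 block: 3 of the 6 measured had a log2 fold change above 0, and their median was 0.01 (1 of 6 above 0 under either TPM scaling). Trim63 stood at 115, 113, 115 and 139 FPKM in the KO libraries, against 147, 116, 159 and 152 FPKM in the WT libraries. KO replicates 1 to 3 and WT replicate 2 lay together at 113 to 116 FPKM, and the groups overlapped (log2 fold change -0.25, SE 0.11, limma adjusted p = 0.502). Fbxo32, which encodes atrogin-1, the other classical ligase of muscle wasting, stood at 46.0, 57.1, 51.0 and 47.7 FPKM in the KO libraries and at 49.9, 42.5, 38.8 and 64.4 FPKM in the WT libraries. Its lowest and highest values both belonged to WT libraries, and the fold change of 0.07 (SE 0.15) had a 95% interval of -0.28 to 0.41. Under the TPM scaling Fbxo32 turned to -0.15.

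Fbxo40, a muscle ligase that acts on the insulin receptor substrate IRS1, lies at chr16:36963309-36991404 (mm10). It had 108, 99.9, 92.3 and 102 FPKM in the KO libraries, against 116, 113, 111 and 107 FPKM in the WT libraries. Only KO replicate 1 reached into the WT range, above WT replicate 4. The log2 fold change was -0.15 (SE 0.066), with an unadjusted limma p of 0.0449 and an adjusted p of 0.472. Fbxo21, a ligase linked to denervation, was much scarcer, at 5.27, 6.58, 5.50 and 6.63 FPKM in the KO libraries, against 4.57, 4.67, 4.98 and 6.07 FPKM in the WT libraries. WT replicate 4 lay among the KO values (log2 fold change 0.22, adjusted p = 0.552). Fbxo30, a ligase known to be kept down by BMP signalling, ranged over 5.40 to 7.49 FPKM in KO and 4.98 to 8.12 in WT. Nedd4, a ligase of another structural class, ranged over 103 to 124 FPKM in KO and 107 to 119 in WT.

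All 3 FoxO factors had a log2 fold change below 0, also under each of the 4 other scalings, and none passed the test. Foxo1 stood at 5.34, 6.26, 9.44 and 9.93 FPKM in the KO libraries, against 6.48, 5.13, 19.4 and 7.10 FPKM in the WT libraries. WT replicate 3 was the highest of all 8 by a wide margin. Without it the log2 fold change of Foxo1 turned to 0.26, against -0.14 with all libraries, and it was 0.02 without KO replicate 1. Foxo3, the factor best known for switching on autophagy in muscle, had 9.39, 10.3, 10.5 and 13.1 FPKM in the KO libraries, against 10.9, 10.5, 15.6 and 11.1 FPKM in the WT libraries. Here too WT replicate 3 was highest, and the groups overlapped (log2 fold change -0.14, SE 0.15, limma adjusted p = 0.791). Foxo4 was the most abundant of the family, at 53.1, 39.0, 48.6 and 40.6 FPKM in the KO libraries and 49.3, 52.1, 43.0 and 51.8 FPKM in the WT libraries (log2 fold change -0.12).

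**Figure D1:**
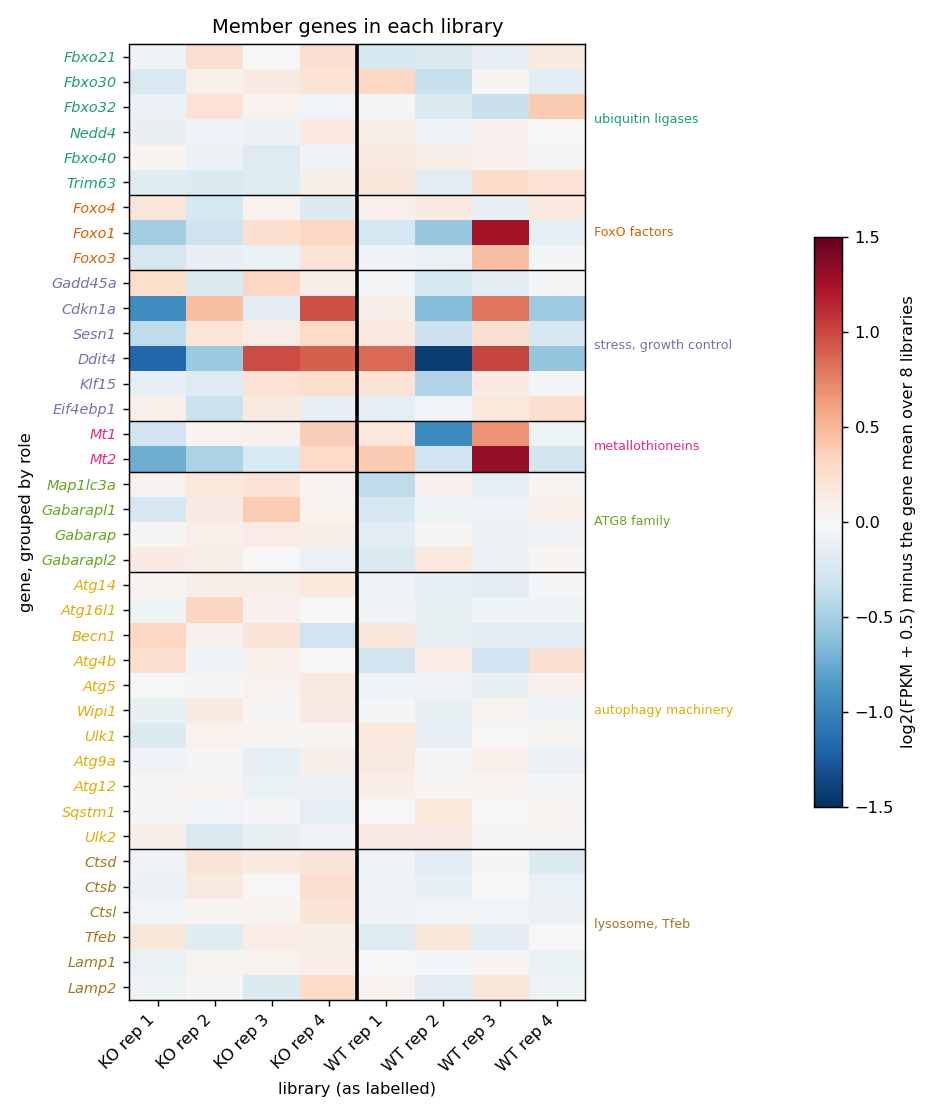
Heat map of the 38 member genes (down the page, grouped by role) in the 8 libraries (across, KO then WT, as labelled). Colour is log2(FPKM + 0.5) minus the gene's mean over the 8 libraries, from blue (lower) to red (higher); the strongest colours are in Ddit4, Cdkn1a, Foxo1, Mt1 and Mt2 and appear in both groups.

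Among the 6 genes of stress response, growth arrest and growth control, 5 had a log2 fold change above 0 (median 0.09). Under the TPM scaling 1 of the 6 did, and 3 did over genes above 0 in every library. Gadd45a, a growth arrest gene induced in denervated muscle, had 42.6, 30.5, 44.1 and 37.9 FPKM in the KO libraries, against 35.1, 30.1, 31.4 and 35.0 FPKM in the WT libraries. KO replicate 2 was as low as the WT libraries, and the other 3 KO values were above all WT values (log2 fold change 0.22, SE 0.12, limma adjusted p = 0.561).

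Cdkn1a, which encodes the cell cycle inhibitor p21, stood at 7.68, 20.8, 13.3 and 29.6 FPKM in the KO libraries, against 16.1, 9.43, 26.6 and 10.2 FPKM in the WT libraries. Low and high values occurred in both groups, and the 95% interval of the fold change of 0.15 ran from -0.84 to 1.14. Sesn1, a sestrin that restrains mTORC1 and is induced by p53 and FoxO, had 20.2, 30.1, 28.8 and 32.8 FPKM in the KO libraries, against 29.4, 21.2, 31.1 and 22.2 FPKM in the WT libraries. KO replicate 1 and WT replicates 2 and 4 lay at 20.2 to 22.2 FPKM and the other 5 libraries at 28.8 to 32.8. Cdkn1a ordered the 8 libraries exactly as Sesn1 did.

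Ddit4, an inhibitor of mTORC1 induced by glucocorticoids and low oxygen, varied most of all members. It had 4.03, 6.47, 19.7 and 18.5 FPKM in the KO libraries, against 17.9, 3.31, 20.1 and 6.34 FPKM in the WT libraries. The libraries fell into 2 sets of 4, and each set held 2 KO and 2 WT libraries: KO replicates 3 and 4 with WT replicates 1 and 3 at 17.9 to 20.1 FPKM, and the rest at 3.31 to 6.47. Klf15, a transcription factor induced by glucocorticoids, was at 31.8, 30.5, 40.7 and 42.2 FPKM in the KO libraries, against 40.3, 25.5, 38.1 and 34.7 FPKM in the WT libraries. The 4 libraries high in Ddit4 were also the 4 highest in Klf15, at 38.1 to 42.2 FPKM.

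Chosen after their values were seen, other glucocorticoid-responsive genes were set beside Ddit4. Per1, a clock gene, had 12.1, 7.91, 21.0 and 20.5 FPKM in the KO libraries, against 29.3, 9.48, 20.0 and 16.4 FPKM in the WT libraries. Cebpb, a transcription factor, had 75.8, 100, 141 and 134 FPKM in the KO libraries, against 159, 75.7, 155 and 123 FPKM in the WT libraries. In both genes the same 4 libraries were the 4 highest. That held for 5 of the 13 genes in the glucocorticoid list, the others being Tsc22d3, Sgk1 and Mstn, and not for the remaining 8. Mstn met it narrowly, at 43.6 FPKM in KO replicate 3 against 43.4 in KO replicate 1, as did Sgk1. Among the 8, WT replicate 1 had 9.16 FPKM of Fkbp5 and 11.3 of Zbtb16, against 16.4 and 34.6 in WT replicate 4. The same share over all genes was not computed, so the count is not read as a trait of glucocorticoid genes. Eif4ebp1, a brake on translation that mTORC1 releases, ranged over 36.3 to 50.2 FPKM in KO and 41.2 to 54.2 in WT.

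The metallothioneins spread widely within both groups. Mt2 had 29.6, 35.5, 42.4 and 61.2 FPKM in the KO libraries, against 65.2, 40.5, 123 and 41.0 FPKM in the WT libraries. WT replicate 3 was the highest library and KO replicate 1 the lowest. The log2 fold change of -0.57 (SE 0.36, limma adjusted p = 0.634) was the largest in size of the 38 members, with a 95% interval of -1.39 to 0.26. Mt1 averaged 75.9 ± 13.9 FPKM in the KO libraries and 75.7 ± 32.8 FPKM in the WT libraries (SD, n = 4 each). Its values were 59.4, 74.8, 75.8 and 93.4 FPKM in KO and 80.7, 37.3, 116 and 68.4 FPKM in WT, so the WT libraries held both the lowest and the highest.

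**Figure D2:**
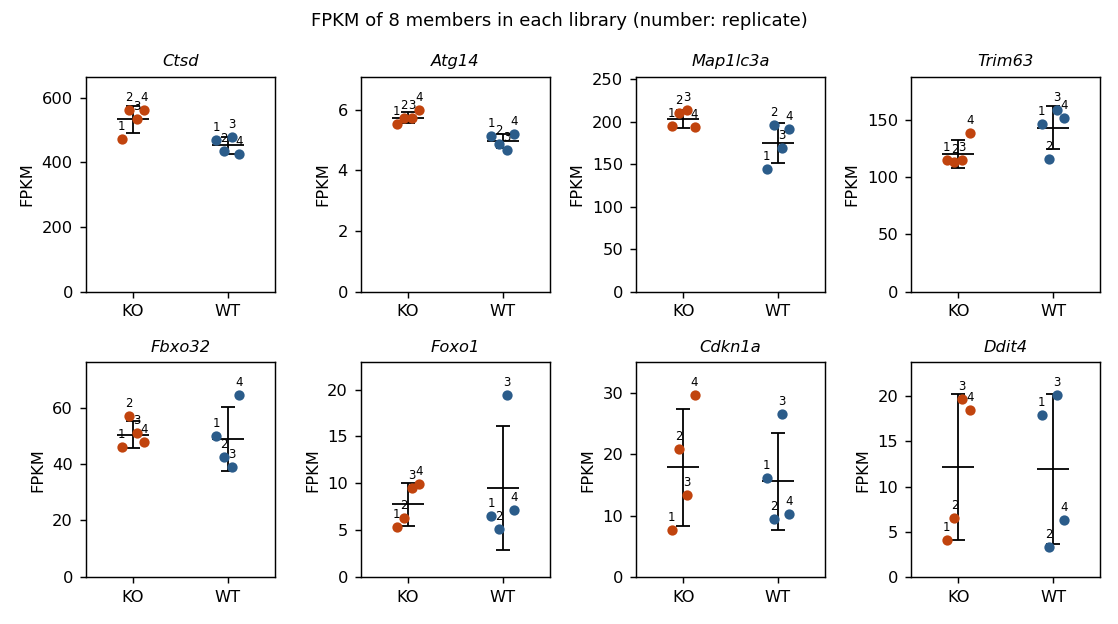
FPKM (vertical axes, linear, from 0) of 8 members in each library, KO left of WT; points are libraries with their replicate number, the long bar is the mean and the whiskers are the SD (n = 4 each). Atg14 is the member whose groups do not overlap, and Ddit4 has 2 high and 2 low libraries in each group.

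The ATG8 family, the small proteins that are joined to lipid on the growing autophagosome, had a log2 fold change above 0 in 4 of 4 measured members (median 0.15), but in 1 of 4 under the TPM scaling and 3 of 4 when that sum ran over genes above 0 in every library. Gabarap, on an entry that the files share with Ctdnep1, had 263, 273, 280 and 275 FPKM in the KO libraries, against 230, 263, 244 and 249 FPKM in the WT libraries. KO replicate 1 and WT replicate 2 met at 263 FPKM, and the others did not overlap (log2 fold change 0.15, SE 0.065, limma adjusted p = 0.486). Map1lc3a, which encodes an LC3 protein, had 195, 210, 214 and 194 FPKM in the KO libraries, against 144, 196, 169 and 191 FPKM in the WT libraries. WT replicates 1 and 3 were low, and the other 2 WT libraries came close to the KO range or lay in it (log2 fold change 0.22, SE 0.10, limma adjusted p = 0.503). Gabarapl1, known as a FoxO target in muscle, stood at 45.2, 59.2, 70.9 and 56.0 FPKM in the KO libraries and 45.4, 51.4, 52.3 and 56.9 FPKM in the WT libraries. Gabarapl2 ranged over 81.9 to 95.3 FPKM in KO and 75.5 to 97.9 in WT.

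The 11 genes of autophagy initiation, conjugation and cargo split evenly, with 6 above 0 (median 0.08; 0 of 11 above 0 under the TPM scaling and 5 over genes above 0 in every library). Atg14, a subunit of the lipid kinase complex that starts the autophagosome, lies at chr14:47540894-47568434 (mm10), on the chromosome of Mss51; the part of that position in its value was not tested. It had 5.52, 5.72, 5.71 and 5.99 FPKM in the KO libraries, against 5.12, 4.88, 4.68 and 5.20 FPKM in the WT libraries. Every KO library was above every WT library, but by little: the log2 fold change was 0.19 (SE 0.074, 95% interval 0.02 to 0.36), with an unadjusted limma p of 0.0309 and an adjusted p of 0.435. Of the 38 members, 1 had groups that did not overlap, and that was Atg14, where 3.89% of all genes stood wholly higher in KO and 1.61% wholly lower, and under the TPM scaling its fold change was -0.0039. The SD of Atg14 within the groups was among the smallest of all genes tested (percentile 1.25).

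Ulk2 and Ulk1 encode the kinases that start autophagy. Ulk2 had 30.9, 24.7, 26.7 and 27.8 FPKM in the KO libraries, against 31.6, 31.5, 29.3 and 29.1 FPKM in the WT libraries. KO replicate 1 lay in the WT range and the other 3 below it (log2 fold change -0.14, SE 0.080, limma adjusted p = 0.590). Ulk1 had 22.1, 26.5, 26.3 and 26.1 FPKM in the KO libraries, against 28.7, 23.5, 25.7 and 26.4 FPKM in the WT libraries, with KO replicate 1 the lowest of all 8. Sqstm1, which encodes the cargo receptor p62, was among the most abundant members, at 299, 286, 289 and 268 FPKM in the KO libraries, against 293, 330, 297 and 303 FPKM in the WT libraries. KO replicate 1 lay within the WT range and the other 3 KO libraries below it (log2 fold change -0.10, limma adjusted p = 0.672).

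The groups of the remaining autophagy genes overlapped, and none passed the test. Atg16l1, part of the conjugation complex with Atg5 and Atg12, stood at 9.19 to 12.2 FPKM in KO and 8.88 to 9.25 in WT, with KO replicate 2 highest. Atg5 ranged over 9.95 to 10.9 FPKM in KO and 9.13 to 10.4 in WT, and Atg12 over 17.6 to 19.4 in KO and 18.5 to 20.2 in WT. Becn1, a partner of Atg14, ranged over 26.9 to 41.3 FPKM in KO and 29.7 to 37.5 in WT. Wipi1, a reader of the lipid made by that complex, ranged over 26.3 to 31.2 FPKM in KO and 26.3 to 29.2 in WT. Atg4b, the protease that trims ATG8 proteins, ranged over 9.46 to 11.9 FPKM in KO and 7.98 to 11.7 in WT. Atg9a, a lipid scramblase of the growing membrane on an entry shared with Abcb6, ranged over 68.3 to 79.4 FPKM in KO and 69.8 to 81.3 in WT.

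The lysosomal genes with their regulator Tfeb had a log2 fold change above 0 in 6 of 6 (median 0.10); the count was 5 with median-ratio scaling, 4 with quantile normalization, 3 with the sum over genes above 0 in every library and 1 under the TPM scaling. Ctsd, the main aspartic protease of the lysosome and the most abundant member, had the smallest p of the set. It stood at 473, 562, 534 and 562 FPKM in the KO libraries, against 469, 434, 479 and 426 FPKM in the WT libraries. KO replicates 2 to 4 were above all WT libraries, and KO replicate 1 lay within the WT range. The log2 fold change was 0.24 (SE 0.081, 95% interval 0.05 to 0.42, limma adjusted p = 0.388), and the entry is shared with Ifitm10 at chr7:142325837-142388038 (mm10).

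In these bulk samples fewer cells of a type and less RNA per cell cannot be told apart, and lysosomal genes are also strongly expressed by macrophages. The summed FPKM of 9 macrophage markers was 377, 492, 328 and 444 in the KO libraries, against 294, 322, 415 and 402 in the WT libraries, and 6 of the 9 had a log2 fold change above 0. Its part in the cathepsin values was not tested, and neither was that of the oxidative fibre markers, which were also low in KO replicate 1.

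The cysteine proteases Ctsb and Ctsl followed at lower levels. Ctsb, which lies on chromosome 14 as Mss51 does, had 100, 117, 106 and 127 FPKM in the KO libraries, against 103, 98.6, 106 and 99.3 FPKM in the WT libraries (log2 fold change 0.14, limma adjusted p = 0.601). KO replicates 2 and 4 were high, KO replicate 1 lay in the WT range, and KO replicate 3 lay at its upper edge. Ctsl, a cathepsin long used as a marker of muscle wasting, had 98.8, 104, 105 and 117 FPKM in the KO libraries, against 98.6, 99.1, 99.0 and 95.5 FPKM in the WT libraries. KO replicate 1 again lay in the WT range, and the other 3 were above it (log2 fold change 0.11, limma adjusted p = 0.608).

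Tfeb itself had 48.7, 38.1, 46.8 and 46.2 FPKM in the KO libraries, against 37.8, 49.0, 38.8 and 43.6 FPKM in the WT libraries. The groups overlapped nearly fully (log2 fold change 0.09, limma adjusted p = 0.821). The membrane proteins of the lysosome stood at 268 to 308 FPKM in KO and 268 to 291 in WT for Lamp1, and at 52.9 to 74.4 FPKM in KO and 54.6 to 69.0 in WT for Lamp2.

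**Figure D3:**
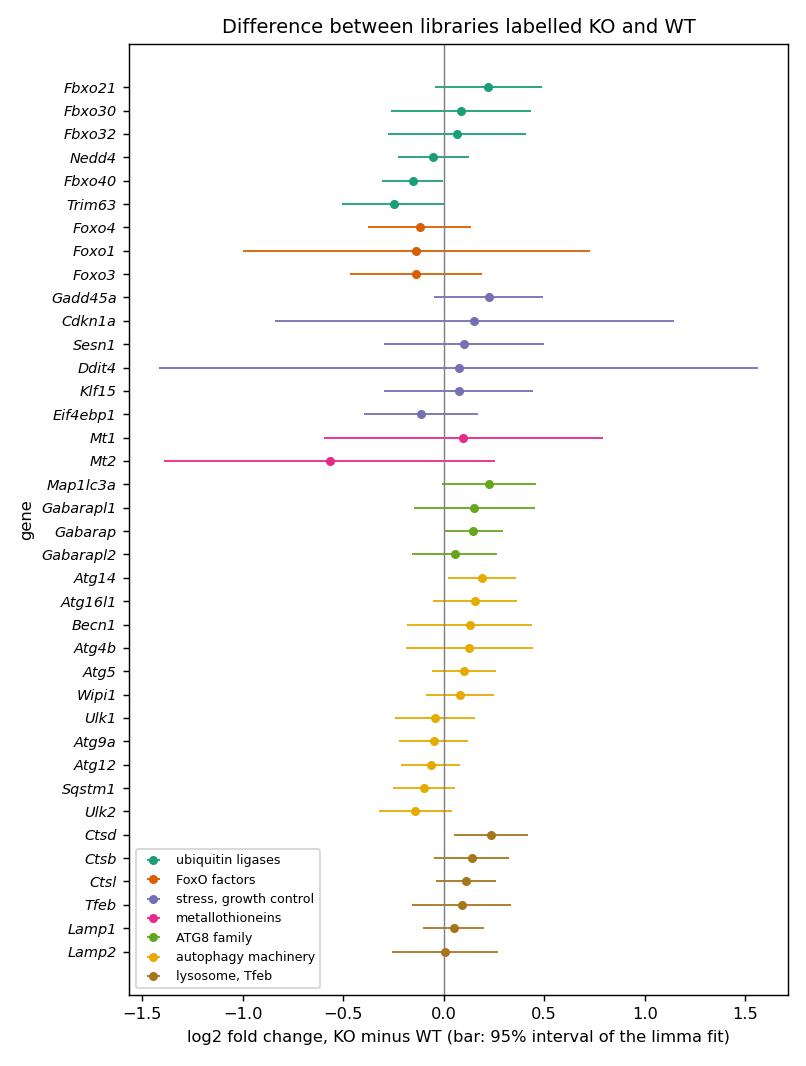
Log2 fold change on the scale of log2(FPKM + 0.5), KO minus WT (horizontal axis), of the 38 members (down the page, coloured by role); points are estimates and bars are 95% intervals of the limma fit over 11878 genes, not adjusted for the number of genes. The intervals of Ctsd and Atg14 lie above 0 and that of Fbxo40 below 0, and Ddit4, Cdkn1a, Foxo1 and Mt2 have the widest.

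Leaving out KO replicate 1 changed which members separated. Without it, 10 of the 38 members had groups that did not overlap, 7 higher in KO and 3 lower. Of all genes tested, 9.35% stood wholly higher and 4.51% wholly lower in those 7 libraries. The 7 were Ctsd, Ctsb, Ctsl, Lamp1, Atg14, Atg16l1 and Gabarap, and the 3 were Fbxo40, Ulk2 and Sqstm1. In that comparison 4 of the 6 members of the group of the lysosome and its regulator Tfeb stood wholly above WT. Of 30 other lysosomal genes tested, 3 did, and their median log2 fold change was -0.0013. Lamp1 separated narrowly, with 294 FPKM in KO replicate 2 against 291 in WT replicate 3. Ctsb rounded to 106 FPKM in both KO replicate 3 and WT replicate 3. Groups separate more easily by construction when a library is left out. Still 0 of the 38 passed the limma test, beside 1.05% of all genes (125 called), and the smallest adjusted p was 0.124, for Ctsd (log2 fold change 0.29). In the same 7 libraries 4 of the 8 slow and oxidative fibre markers stood wholly above WT and 3 passed the test. With all 8 libraries 0 of these markers stood wholly above WT and 0 passed. KO replicate 1 was picked for its low sum of these markers, so their separation without it follows from that choice. The part of these markers in the members' values was not tested.

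The members differed among themselves in how far mice of 1 group spread. The median SD within the groups was 0.16 on the log2 scale over the 38 members and 0.18 over all genes tested. Ddit4 (SD 1.12), Cdkn1a (0.74), Foxo1 (0.64) and Mt2 (0.62) lay above the 95th percentile of all genes tested, and Mt1 followed at 0.52. Between the lowest and the highest library Ddit4 differed 6.05-fold, Mt2 4.17-fold, Cdkn1a 3.85-fold, Foxo1 3.79-fold and Mt1 3.13-fold. No other member had an SD above 0.5.

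**Figure D4:**
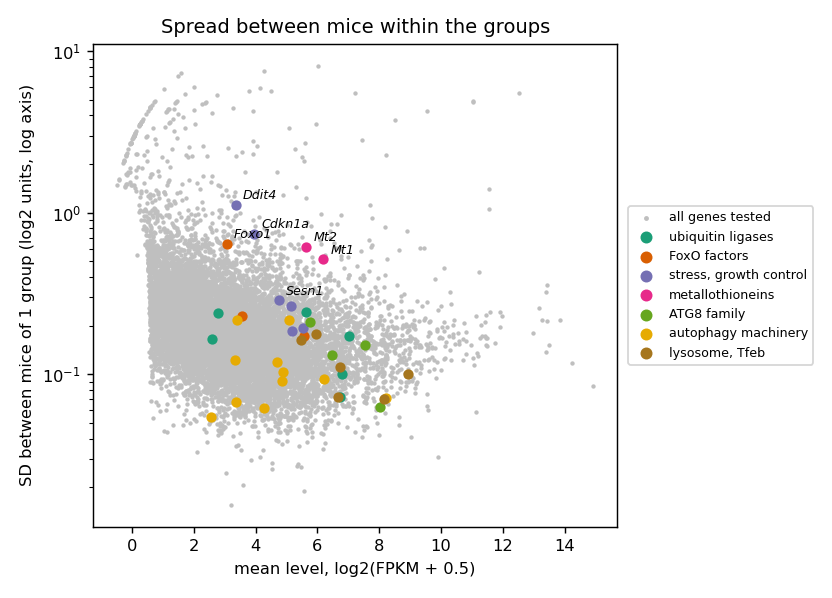
SD between mice within the groups (vertical axis, log2 units on a log axis) against mean level, log2(FPKM + 0.5) (horizontal axis), for 11878 genes in grey and the 38 members in colour by role. Ddit4, Cdkn1a, Foxo1, Mt2 and Mt1 are the highest of the members, with SD of 0.52 to 1.12, and grey genes lie above them.

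Members that moved together were sought over the 8 libraries among all 703 pairs. Coefficients are of log2(FPKM + 0.5), p-values are two-sided and exact over the 40320 pairings, and they are adjusted over the 703 pairs by Benjamini-Hochberg. In 115 pairs the unadjusted exact p was under 0.05. The same share among pairs of other genes was not computed, so the count is not read as a trait of these members. By r 1 pair passed the adjustment, Foxo4 with Wipi1. By rho 2 pairs passed, Foxo4 with Wipi1 and Cdkn1a with Sesn1. Wipi1 had 26.3, 31.2, 28.9 and 31.1 FPKM in the KO libraries and 28.1, 26.3, 29.2 and 27.1 FPKM in the WT libraries. The higher Foxo4 stood, the lower Wipi1 stood, with r = -0.96 (exact permutation p = 2.48e-05, the smallest the pairings allow; adjusted p = 0.0174) and a Spearman rho of -1.0 (exact permutation p = 4.96e-05, adjusted p = 0.0174). After centring each group r was -0.95, and without the 2 libraries farthest from the median of Foxo4 it was -0.88. Without KO replicate 1 r was -0.95. The pair did not pass when libraries were scaled over genes above 0 in every library, where 0 of the 703 pairs did.

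The highest positive coefficients among pairs without a split into separate sets did not pass the adjustment. Gabarap and Map1lc3a, both of the ATG8 family, had r = 0.93 and rho = 0.86 (exact permutation adjusted p = 0.0581 and 0.204), and r was 0.74 without the 2 libraries farthest from the median of Gabarap. Wipi1 and Ctsb had r = 0.92 and rho = 0.88 (exact permutation adjusted p = 0.0581 and 0.204; 0.95 without the 2 farthest libraries). Foxo3 and Mt2 had r = 0.93 and rho = 0.88 (exact permutation adjusted p = 0.143 and 0.204), and r was 0.74 without the 2 libraries farthest in Foxo3, 1 of them WT replicate 3. The cathepsins Ctsb and Ctsd had r = 0.88 and rho = 0.93 (exact permutation adjusted p = 0.0847 and 0.196).

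Among the lowest coefficients, Ulk2 with Atg16l1 had r = -0.90 and rho = -0.95 (exact permutation adjusted p = 0.0581 and 0.134; r = -0.82 without the 2 libraries farthest in Ulk2), and Foxo4 with Cdkn1a had r = -0.90 and rho = -0.90 (exact permutation adjusted p = 0.145 and 0.204; r = -0.97 without the 2 farthest in Foxo4). No pooled r is given for pairs with Sesn1, Ddit4 or Trim63, whose libraries fell into 2 separate sets. That leaves out Cdkn1a with Sesn1 and Klf15 with Ddit4, both among the 5 highest by r. Cdkn1a and Sesn1 ranked the libraries alike, with rho = 1.0 (exact permutation p = 4.96e-05, adjusted p = 0.0174), while by r the adjusted exact permutation p was 0.0581.

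The classical pair of wasting ligases did not order the libraries alike. WT replicate 4 and KO replicate 2 were highest in Fbxo32, at 64.4 and 57.1 FPKM, and had 152 and 113 FPKM of Trim63. WT replicate 3, the lowest in Fbxo32, was the highest in Trim63 and in Foxo1. Fbxo32 with Foxo1 had r = -0.40 and rho = -0.02 (exact permutation adjusted p = 0.631 and 0.995; 0.31 without the 2 farthest libraries). Mt1 with Mt2 had r = 0.70 and rho = 0.86 (exact permutation adjusted p = 0.339 and 0.204; 0.85 without the 2 farthest).

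The other pairs picked by name were also short of the threshold, with exact permutation tests. Foxo3 with Foxo4 had r = -0.50 and rho = -0.38 (adjusted p = 0.527 and 0.661 by exact permutation; -0.03 without the 2 farthest). Lamp1 with Lamp2 had r = 0.50 and rho = 0.33 (adjusted p = 0.53 and 0.711 by exact permutation; 0.51 without the 2 farthest). Gadd45a with Cdkn1a had r = -0.28 and rho = -0.07 (adjusted p = 0.725 and 0.947 by exact permutation; 0.26 without the 2 farthest). Ulk1 with Becn1, which act in sequence at the start of autophagy, had r = -0.17 and rho = -0.07 (adjusted p = 0.858 and 0.947 by exact permutation; 0.60 without the 2 farthest). Fbxo32 with Ctsl had r = -0.06 and rho = -0.12 (adjusted p = 0.939 and 0.915 by exact permutation; 0.21 without the 2 farthest, taken on Fbxo32).

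**Figure D5:**
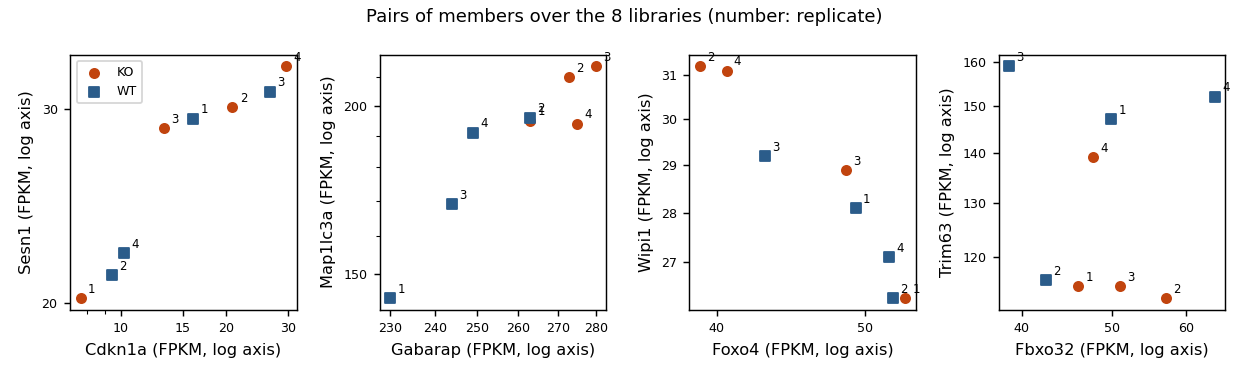
Pairs of members over the 8 libraries, FPKM on log axes, KO circles and WT squares with the replicate number. Sesn1 falls into 2 sets of libraries, Gabarap is high where Map1lc3a is high, Wipi1 is low where Foxo4 is high (r = -0.96), and Trim63 takes high and low values at like levels of Fbxo32.

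Genes of the same pathways outside the set showed a like picture: of 8 further lists, 0 genes passed the limma test over all genes, beside the 0.0505% called in all. How many members of a list stood above 0 depended on the scaling and on KO replicate 1, so each count is followed by its range over the 4 other scalings and the fit without that library. Of 30 other autophagy genes, 21 had a log2 fold change above 0 (6 to 16; median 0.03). The 21 include Atg7, an enzyme of ATG8 conjugation, whose only value above 0 is that in KO replicate 4. Tecpr1, which helps autophagosomes fuse with lysosomes, had 9.05, 10.2, 8.89 and 8.88 FPKM in the KO libraries, against 7.59, 7.30, 7.39 and 7.83 FPKM in the WT libraries. All KO libraries were above all WT libraries (log2 fold change 0.28, SE 0.073, limma adjusted p = 0.347). Atg10, a conjugation enzyme, was also wholly above WT (0.21, adjusted p = 0.443 by limma). Atg4a, a protease for ATG8 proteins that came next by p, was wholly below WT (-0.21, adjusted p = 0.443 by limma). Bnip3, a mitophagy receptor and FoxO target, overlapped WT (0.27, adjusted p = 0.440 by limma).

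Of 30 other lysosomal genes tested of 31 listed, 17 stood above 0 (3 to 15; median 0.01). Mcoln1, the calcium channel of the lysosome, on an entry shared with Pnpla6, had 24.7, 22.8, 24.7 and 21.3 FPKM in the KO libraries, against 20.2, 17.7, 17.0 and 20.9 FPKM in the WT libraries. The groups did not overlap (log2 fold change 0.30, SE 0.090, limma adjusted p = 0.353). The cathepsins Ctsf and Ctss each had a log2 fold change of 0.26 with overlapping groups (limma adjusted p = 0.453 and 0.520). Of 19 other muscle ubiquitin and protease genes, 7 stood above 0 (1 to 6; median -0.06). The lowest p among these belonged to the calpain Capn1 (-0.26, adjusted p = 0.382 by limma), the ligase adaptor Asb2 (-0.20, 0.596) and the ligase Ubr2 (-0.11, 0.616).

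FoxO signalling genes and targets stood above 0 in 7 of 19 (3 to 12; median -0.02). The 12, with a median of 0.04, were without KO replicate 1. In the list stood Irs1, the insulin receptor substrate, at a log2 fold change of -0.40 (limma adjusted p = 0.424) and Pik3r1, a subunit of PI3-kinase, at -0.20 (0.603). Of 13 glucocorticoid genes, 2 stood above 0 (1 to 4; median -0.17). Nr3c1, the glucocorticoid receptor, had 38.2, 29.2, 31.3 and 33.9 FPKM in the KO libraries, against 40.4, 39.3, 49.4 and 41.9 FPKM in the WT libraries. Every KO library was below every WT library (log2 fold change -0.36, SE 0.10, limma adjusted p = 0.347). Dusp1, a phosphatase, stood at -0.36 (0.553 by limma) and Cdkn1c, a cell cycle inhibitor, at 0.19 (0.583).

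Of 10 p53 targets, 6 stood above 0 (1 to 8; median 0.04). The smallest p belonged to Aen (log2 fold change 0.13), Sesn2 (-0.16) and Plk2 (0.19), with limma adjusted p of 0.590, 0.807 and 0.811. Of 12 denervation genes, 8 were tested and 7 stood above 0 (3 to 7; median 0.09). The list was not split by the direction in which denervation moves its genes, so this count is not a score of denervation. Dach2, a transcriptional repressor, had 1.52, 2.63, 2.27 and 2.45 FPKM in the KO libraries, against 1.71, 1.15, 1.50 and 1.36 FPKM in the WT libraries. KO replicate 1 lay in the WT range and the others above it (log2 fold change 0.48, SE 0.17, limma adjusted p = 0.411). The acetylcholine receptor subunits Chrna1 (0.26) and Chrnb1 (0.23) had adjusted p of 0.590 and 0.727 by limma. Of 6 metal response genes, 3 stood above 0 (1 to 3; median -0.02), and Slc39a10, Mt3 and Hmox1 had log2 fold changes of -0.14, 0.42 and -0.16 with limma adjusted p of 0.695, 0.698 and 0.727.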

How the data were processed

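RNA of quadriceps muscle from 8 mice, 4 labelled KO and 4 labelled WT, was read as 150-base pairs to a stated 50 M pairs per library (M for mega), after selection on oligo(dT), per the labels' protocols. The authors deposited 1 table of FPKM per library, per the file headers. The submitters' processing notes name Cufflinks 2.2.1, TopHat2 2.1.1, Bowtie2 2.2.6, FastQC and the build mm10, with no role for each. The annotation, filters and strand setting are not given in the sources used here, so genes that overlap are uncertain, among them the members on shared entries (Gabarap, Atg9a and Ctsd). Counts were not used here, so the depth is unknown and no counting interval is given.

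Each table held 46036 entries. The 2379 entries without a name, which carried 65.8% to 93.2% of a library's summed FPKM, were left out. Of 43239 names, 344 stood on several entries, and the entry with the highest mean was used. The 11878 genes that averaged 1 FPKM or more were tested as log2(FPKM + 0.5) with limma 3.58.1 in R 4.3.3, with genotype as the sole term, empirical Bayes with trend, two-sided, Benjamini-Hochberg over all genes tested, threshold 0.05. The fit was tested on simulated data with independent normal noise, and no power to find differences as small as those of the members is drawn from that. A fold change on this scale understates the change of low genes. Mss51 and pairs of members were compared by exact permutation.

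The members, lists, naming rule and alternatives were chosen with earlier results of these data known. Values in every library are given for members without overlap, the 10 members with the smallest p and 16 picked by name. Map1lc3b was among those picked by name but was not analysed and has no values. Of each other list the 3 genes with the smallest p are named. Alternatives were other pseudocounts, filters and scalings, summing of repeated names, robust and weighted fits, a block for the replicate number, and dropping 1 library at a time. Scaling by the sum of genes never listed at 0 was added after seeing the data. The TPM scaling and the fit without KO replicate 1 were added for the other lists after seeing the data.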

Additional observations from a re-analysis of the deposited data

Results flagged for a closer look

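In 6 of the 76 groups of 4 libraries searched over the 38 members (7.89%), 1 library stood far from the other 3 by Dixon's criterion; chance alone gives about 1 in 20. Trim63 was 139 FPKM in KO replicate 4 and 113 to 115 in the other KO libraries. Foxo1 was 19.4 FPKM in WT replicate 3 and 5.13 to 7.10 in the other WT libraries. Foxo3 was 15.6 FPKM in WT replicate 3 and 10.5 to 11.1 in the other WT libraries. Ulk1 was 22.1 FPKM in KO replicate 1 and 26.1 to 26.5 in the other KO libraries. Becn1 was 37.5 FPKM in WT replicate 1 and 29.7 to 30.6 in the other WT libraries. Ctsl was 95.5 FPKM in WT replicate 4 and 98.6 to 99.1 in the other WT libraries.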

How the results depend on the processing

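No member passed the test under any of the 20 alternatives run, where the smallest adjusted p of limma ran from 0.124 to 1. Of 760 member fold changes under these alternatives, 706 kept their direction and 54 turned. Under TPM the median log2 fold change over all genes was -0.18, against 0.02 in the deposited scale, and the sums of KO replicate 4 and WT replicate 3 rested for 54.9% and 41.8% on 1 entry each, Atg7 and Gm22953. It called 114 genes in place of 6 (60 higher and 54 lower in KO, against 6 and 0), 1 gene of the other lists in place of 0, 518 pairs in place of 1, and gave 0 members without overlap and a member median of -0.13. Against the shift of all genes, that median was higher, as it was without rescaling. The fold changes that turned under it were Fbxo32 -0.15, Fbxo30 -0.11, Cdkn1a -0.058, Klf15 -0.14, Ddit4 -0.13, Sesn1 -0.11, Mt1 -0.12, Gabarap -0.068, Gabarapl1 -0.060, Gabarapl2 -0.16, Becn1 -0.079, Atg4b -0.074, Atg5 -0.10, Atg14 -0.0039, Atg16l1 -0.044, Wipi1 -0.13, Ctsl -0.10, Ctsb -0.073, Lamp1 -0.17, Lamp2 -0.21 and Tfeb -0.12. With the sum over genes above 0 in every library, added after seeing the data, the median of all genes was -0.07, the member median -0.016, 2 members did not overlap, 0 pairs passed, and Fbxo32 was -0.030, Fbxo30 -0.0040, Klf15 -0.022, Ddit4 -0.017, Gabarapl2 -0.043, Wipi1 -0.014, Lamp1 -0.048, Lamp2 -0.090 and Tfeb -0.0075. With quantile normalization Lamp1 was -0.071 and Lamp2 -0.027, and 3 members did not overlap; with median ratios Lamp2 was -0.019 and 2 did not overlap. Leaving out each library in turn gave 4 to 125 genes called (125 without KO replicate 1), 1 to 10 members without overlap, which by construction is easier with 3 libraries (10 when KO replicate 1 was dropped, 5 for WT replicate 4 and 4 for WT replicate 2), and a member median of -0.0014 (without WT replicate 2) to 0.0997. The ranges of the fold changes that turned were -0.35 to 0.26 for Foxo1, -0.093 to 0.017 for Ulk1, -0.39 to 0.48 for Ddit4, -0.14 to 0.49 for Cdkn1a, -0.064 to 0.15 for Klf15, -0.20 to 0.34 for Mt1, -0.084 to 0.078 for Lamp2, -0.0079 to 0.12 for Gabarapl2, -0.012 to 0.21 for Fbxo30 and -0.034 to 0.21 for Fbxo32. Without KO replicate 1, 0 pairs passed; with 7 libraries the smallest exact p possible is 0.000198 and a single pair cannot pass over 703. The cause of the other moves was not tested.

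With the replicate number as a block 0 genes were called in place of 6. Same-numbered libraries did not deviate together (correlations of their deviations -0.01, -0.077, -0.081 and 0.009). Whether the numbers pair the mice is not given in the sources used here, and these correlations cannot exclude it.

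The unknown depth, 4 mice a group and the unexplained higher Mss51 RNA in the libraries labelled KO limit every comparison here.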
